A study of Homo sapiens with 10 samples.

Results

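BRD9 sites that were called only partly before SMARCB1 was induced were taken from per-sample CUT&RUN peak lists of G401 cells. The members were chosen by BRD9 calls alone: overlapping peaks of the 6 BRD9 lists were merged on chromosomes 1 to 22 and X, and a merged region was kept where 3 of 3 lists from SMARCB1-induced cells and exactly 1 or 2 of 3 lists from GFP-induced cells held a peak. This left 3125 of 116495 merged regions (2.68%), of which 1507 had a peak in 1 GFP list and 1618 in 2 GFP lists. The choice fixes that the members are called more often after SMARCB1 induction, so that direction is no result and nothing is read from it. What follows describes how long and how dense the peaks were where they were called, which GFP lists held them, and how the members lay relative to SMARCB1 peaks, which the choice did not use.

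G401 is a human rhabdoid tumour cell line, and every group has the labelled genotype SMARCB1(-/-). A doxycycline-inducible construct supplied either SMARCB1 (SB1 below) or, in the control, GFP (GFP below), so GFP cells received an induced protein too. The BRD9 groups hold 3 samples each, stained with a rabbit polyclonal antibody, and the SMARCB1 profile of induced cells holds 2 samples, stained with a rabbit monoclonal antibody. The labels give no induction time or dose, and do not say whether replicates came from separate cultures or how many clones the line represents, so the spreads given here may be technical. Of the 10 samples, 8 lists were used; an IgG sample and a SMARCB1 sample of GFP cells were not analysed here.

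SWI/SNF complexes are ATP-driven chromatin remodellers that occur in several assemblies. SMARCB1 is a core subunit of the canonical BAF and PBAF forms and is lost in rhabdoid tumours. BRD9, a bromodomain protein that reads acetylated lysines, belongs to the non-canonical form, which does not contain SMARCB1 and remains assembled in cells that lack it. CUT&RUN cuts and releases DNA beside an antibody-bound protein, so a peak marks where that protein, or a complex holding it, was located.

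The GFP libraries had 10.6, 12.1 and 10.2 M reads for replicates 1, 2 and 3, and the SB1 libraries 12.1, 10.1 and 13.9 M reads. The lists held 33112 to 43698 peaks (GFP) and 38127 to 44399 peaks (SB1). GFP replicate 2 stood apart: it was the deepest GFP library with the shortest list, and 44.3% of its peaks lay at SMARCB1 regions, against 21.4% and 30.8% in GFP replicates 1 and 3 and 59.6% to 68.3% in the SB1 lists. All 6 BRD9 lists share 1 control library of 23.1 M reads, whose identity the BRD9 files do not give. The SMARCB1 libraries had 64.2 and 59.7 M reads. Density below is the deposited RPKM, reads scaled to the length of the peak and the size of the library, and it is known only where a list has a peak.

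Among the 16260 regions with a peak in 3 of 3 SB1 lists, the members made up 19.2%, between 8049 regions with a peak in no GFP list and 5086 regions called in all 6 lists. Regions just outside the rule on the SB1 side, with 2 of 3 SB1 and 1 or 2 of 3 GFP lists, numbered 1577 and 1498. The members covered 4.79 Mb. Their merged width ran from 347 to 15364 bp, with a median of 1302 bp and quartiles at 959 and 1829 bp. Members were narrower in the median than the regions called in all 6 lists (2400 bp) and wider than those called in no GFP list (1082 bp).

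GFP replicate 2 held 2089 members (66.8%), GFP replicate 3 held 1679 (53.7%) and GFP replicate 1 held 975 (31.2%). Replicate 2 therefore gave 44.0% of the members' GFP calls while giving 29.1% of the peaks in the GFP lists. For replicate 1 the order was turned, with 20.6% of the members' calls from 38.4% of the peaks. Members took up 7.06% of the peaks of replicate 2, 5.14% of those of replicate 3 and 2.58% of those of replicate 1. With a GFP list left out, members are regions with a peak in exactly 1 of the remaining GFP lists, a narrower rule: they numbered 2120 without replicate 1, 1783 without replicate 2 and 2457 without replicate 3.

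By pattern, 908 members were called in GFP replicate 2 alone, 846 in replicates 2 and 3, 437 in replicates 1 and 3, 396 in replicate 3 alone, 335 in replicates 1 and 2, and 203 in replicate 1 alone. Replicate 2 alone made up 60.3% of the members with 1 GFP call, and replicates 2 and 3 together made up 52.3% of those with 2.

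**Figure D1:**
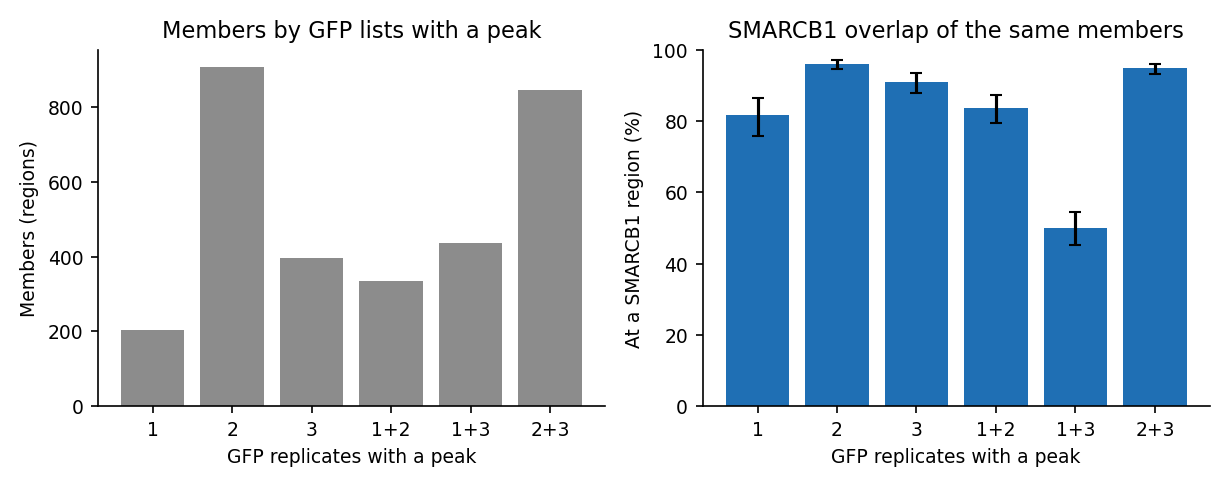
Left, number of members for each set of GFP replicates with a BRD9 peak; right, percentage of the same members at a SMARCB1 region, with 95% Wilson intervals that cover counting error only. The 908 members of replicate 2 alone and the 846 of replicates 2 and 3 are the most frequent sets, and the 437 members of replicates 1 and 3 stand lowest in SMARCB1 overlap, at 49.9%.

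How far a call in some GFP lists carries over to another was read from lists that took no part in the choice. Regions were rebuilt from 5 lists, those in 3 of 3 SB1 lists were kept, and the left-out GFP list was examined. Where 1 of the remaining GFP lists held a peak, 38.5% of regions had a peak in left-out replicate 1, 66.4% in replicate 2 and 54.8% in replicate 3, a mean of 53.2% ± 14.0 (SD, n = 3 lists). Over all regions of the other 5 lists the left-out list held a peak in 22.4%, 16.7% and 20.7%, in the same order. The rate was above that over all regions in each of the 3 lists, and the spread between lists was wide. Those regions need not be called in 3 of 3 SB1 lists, so they are not a like set. Rates for the other regions with 3 of 3 SB1 calls follow.

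Where neither remaining GFP list held a peak, the rate fell to 2.55%, 10.2% and 4.91%, and where both did, it was 86.1%, 92.1% and 94.0%. These classes did not overlap: the highest rate with 0 other calls lay below the lowest with 1, and the highest with 1 lay below the lowest with 2. In the reverse direction, with an SB1 list left out and both other SB1 lists holding a peak, the left-out SB1 list held a peak in 74.4% ± 2.31 of regions with 1 GFP call and 76.8% ± 4.53 of those with 2 (SD, n = 3 lists). Regions with no GFP call had 78.5% ± 2.77 and those with all 3 GFP calls 92.1% ± 2.93. Set side by side in the same left-out list, the rate with 1 GFP call was below that with none in each of the 3 lists (76.3% against 80.3%, 71.9% against 75.3% and 75.1% against 79.8%). Over all regions of the other 5 lists the rate was 25.9% ± 2.13.

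**Figure D2:**
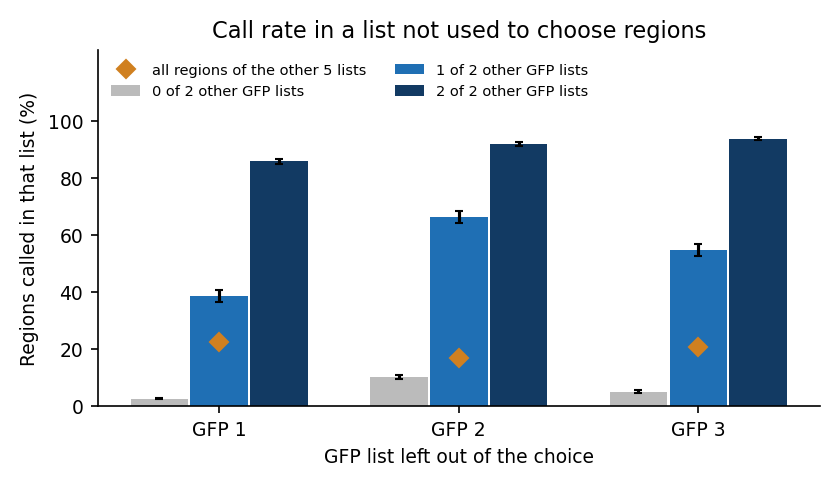
Percentage of regions with a BRD9 peak in a GFP list that was not used to choose them, for regions with a peak in 3 of 3 SB1 lists and in 0, 1 or 2 of the 2 other GFP lists; bars carry 95% Wilson intervals and diamonds mark all regions of the other 5 lists. With 1 other GFP call the rates are 38.5%, 66.4% and 54.8%, between those with 0 calls and those with 2.

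Where a GFP list called a member, its peak was shorter than in SB1 cells but about as dense. The length of a list's peaks within a member had a median of 660, 497 and 659 bp in GFP replicates 1, 2 and 3, and of 863, 805 and 863 bp in SB1 replicates 1, 2 and 3. The groups of list medians did not overlap, at 605 ± 93.8 bp in GFP and 844 ± 33.5 bp in SB1 (SD, n = 3). A GFP list covered 49.0% ± 3.98 of the merged region and an SB1 list 71.9% ± 1.16. The median read count per member was 24, 26 and 24 in GFP and 38, 31 and 40 in SB1. The rule asks for every SB1 call and a missing GFP call, so the shorter GFP length is not independent of the choice. The reverse class has 3 of 3 GFP and 1 or 2 of 3 SB1 calls. Its list medians averaged 874 bp in GFP and 606.5 bp in SB1. These overlapped, as GFP replicate 2 (641 bp) lay below SB1 replicate 1 (722 bp). Over all peaks, medians were 500, 437 and 525 bp in the GFP lists and 602, 552 and 550 bp in SB1. The parts of the choice, of list-wide length and of library depth in the length difference were not tested.

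Density at the members had a median of 3.37, 4.07 and 3.53 RPKM in the GFP lists and 3.63, 3.72 and 3.33 RPKM in the SB1 lists. The groups overlapped, at 3.65 ± 0.365 in GFP and 3.56 ± 0.206 in SB1 (SD, n = 3). The control density under these peaks was 0.726, 1.26 and 1.01 RPKM in the GFP lists and 0.995 to 1.003 RPKM in SB1. GFP replicate 2 was highest in both density and control density, and the part of the control in its density was not tested.

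Member by member, the mean SB1 length over the length in a GFP list had a median log2 ratio of 0.27, 0.66 and 0.39 for GFP replicates 1, 2 and 3, a mean of 0.44 ± 0.20 (SD, n = 3 lists). The share of called members that were longer in SB1 was 59.7%, 82.3% and 69.7%. The same log2 ratio for density was -0.012, -0.11 and -0.0055, a mean of -0.042 ± 0.057. Without GFP replicate 2 its mean was 0.038, so the density ratio had no stable sign. All 3 ratios share the mean of the SB1 lists and cover different members, so their SDs hold no spread between SB1 lists. The same applies to the log2 ratios below. These values are descriptions with no test, since a length or density exists only where a list passed the peak caller's threshold.

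**Figure D3:**
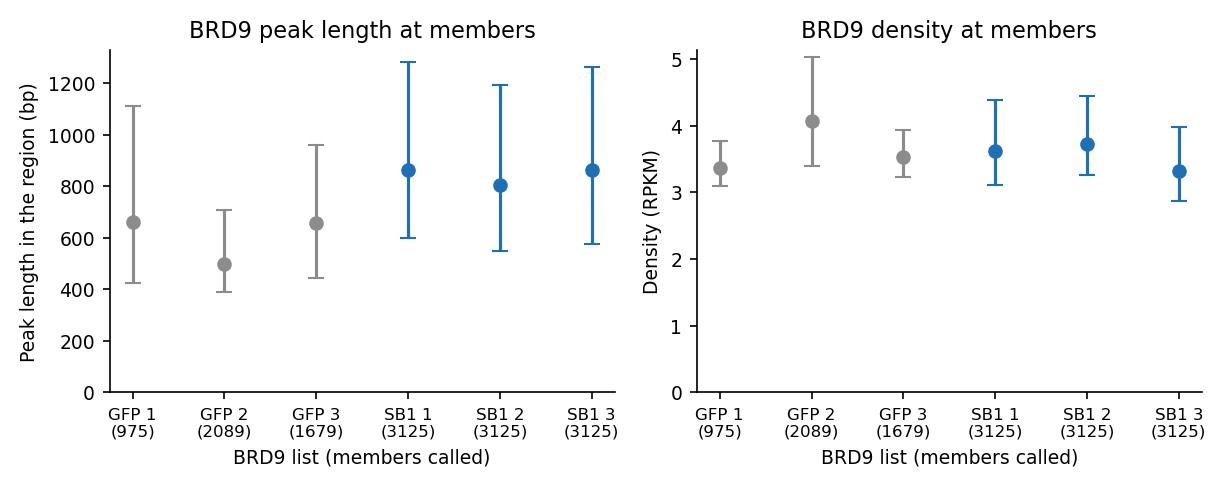
Median (points) and quartiles (bars) over members of the BRD9 peak length in base pairs, left, and of the deposited density in RPKM, right, in each BRD9 list, with the number of members called under each list. The 3 GFP medians of length (497 to 660 bp) lie below the 3 SB1 medians (805 to 863 bp), while the medians of density overlap.

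The length difference was larger in members called in 1 GFP list than in those called in 2. This split is by the calls that the rule itself counts, so the order is not independent of the choice. In GFP replicates 1, 2 and 3, the median read count was 18, 22 and 18 with 1 call and 26, 31 and 27 with 2. With 1 GFP call, the median length was 466 ± 33.1 bp in GFP and 840 ± 27.6 bp in SB1, a log2 ratio of 0.78 ± 0.059. With 2 GFP calls it was 669 ± 92.4 bp against 851 ± 53.0 bp, a log2 ratio of 0.32 ± 0.21. By GFP list the ratio was 0.71 to 0.83 with 1 call and 0.14 to 0.56 with 2, which do not overlap. Regions called in all 6 lists showed no such difference, with 1414 ± 207 bp against 1353 ± 105 bp and a log2 ratio of -0.033 ± 0.15 (SD, n = 3 lists in each case). In SB1 replicates 1, 2 and 3, peaks at regions with no GFP call had medians of 830, 770 and 805 bp and of 3.73, 3.83 and 3.38 RPKM. Members were thus longer and less dense than these regions in each of the 3 SB1 lists. They were shorter than regions called in all 6 lists, where density was 3.92 ± 0.245 RPKM.

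For the 1618 members with 2 GFP calls, 563 (34.8%) had a longer peak in every SB1 list than in either GFP list, 146 (9.02%) had a shorter one in every SB1 list, and 909 (56.2%) overlapped. For density, 175 (10.8%) lay above in every SB1 list, 303 (18.7%) below, and 1140 (70.5%) overlapped. At regions called in all 6 lists, which the rule did not select, lengths separated upwards in 741 regions (14.6%) and downwards in 672 (13.2%), and densities upwards in 210 (4.13%) and downwards in 922 (18.1%). Since a member's missing GFP list is left out of this count, it does not stand on the same footing as the count over all 6.

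The GFP peak mostly lay within the union of the SB1 peaks of all 3 lists. Of the GFP peaks at members, 51.7%, 73.3% and 59.9% in replicates 1, 2 and 3 were wholly inside that union. A further 1.51%, 0.257% and 1.37% touched no SB1 peak, joined to the region only through another list. As each member is built by overlap and holds a peak of every SB1 list, contact with SB1 peaks is largely set by the rule. The GFP apex, the position of highest signal, lay a median of 213, 117 and 208 bp from an SB1 apex. Apexes of different SB1 lists at the same members lay a median of 154, 106 and 132 bp apart. The GFP apex was thus displaced by more than SB1 replicates were from each other, and only in replicate 2 by slightly more.

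The authors' score, −log10 of the false discovery rate, had a median of 6.30, 9.09 and 6.44 at members in the GFP lists and 9.31, 8.78 and 9.38 in the SB1 lists. The lists end at a score close to 4. GFP calls within 0.5 of that end made up 20.3%, 5.36% and 19.8% of the members' calls, against 33.2%, 4.82% and 32.0% of all peaks in those lists. Most GFP calls at members were thus not at the edge of the list, but in replicate 2 the share near it was not below the list-wide share. A member takes the score of its best peak in a list, while the list-wide share counts every peak. The lowest GFP calls at members rested on 9 or 10 reads.

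SMARCB1 peaks lay at most members. A SMARCB1 region is a union of overlapping SMARCB1 peaks that holds a peak of both replicates. Of 3125 members, 2702 (86.5%, 95% Wilson interval 85.2% to 87.6%) overlapped one by at least 1 bp, against 38.9% of all merged BRD9 regions. Those merged regions had a median width of 481 bp, against 1302 bp for members, and need not be called in 3 of 3 SB1 lists. High overlap was not particular to members. With 3 of 3 SB1 calls, it was 97.7% at regions with no GFP call and 65.4% at regions with 3. For members, the single SMARCB1 lists gave 86.9% and 88.2%. A further 355 members (11.4%) had no peak in either SMARCB1 list, and 68 had a peak in 1 list or peaks that did not join. Regions are not replicates and the intervals cover counting error only.

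Taken over all sets of GFP lists, the share stepped down with the number of GFP lists that held the region. Among regions with 3 of 3 SB1 calls it was 97.7% with no GFP call, 92.9% with 1 (91.5% to 94.1%), 80.5% with 2 (78.5% to 82.3%) and 65.4% with 3. It was 33.6% in the reverse class, regions with 3 of 3 GFP and 1 or 2 of 3 SB1 calls, and 29.2% in regions with 3 GFP calls and none in SB1. As wider regions can meet more peaks, regions of 500 to 2000 bp were compared as well: the shares were 97.5%, 92.5%, 82.6% and 73.6% with 0 to 3 GFP calls, against 51.0% of all merged regions of that width.

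SMARCB1 density did not step with the GFP calls. Its median at members was 1.99 RPKM in SMARCB1 replicate 1 and 2.19 RPKM in replicate 2, a mean of 2.09 ± 0.147 (SD, n = 2). Members with 1 and with 2 GFP calls had 2.11 ± 0.146 and 2.08 ± 0.143, regions with no GFP call 2.06 ± 0.152, and regions called in all 6 lists 2.27 ± 0.143, differences that are about as large as or smaller than the gap between replicates. Within each SMARCB1 list, regions called in all 6 lists were the highest of these, at 2.16 and 2.37 RPKM, against 1.95 and 2.16 RPKM with no GFP call. Regions with 3 GFP calls and none in SB1 lay lower, at 1.59 in both lists, and the median SMARCB1 peak had 1.42 and 1.40. The control density under the SMARCB1 peaks at members was 0.509 and 0.488 RPKM, against 0.383 and 0.379 at regions with no GFP call. The median ratio of density to control was 5.20 and 5.84 with no GFP call, 4.25 and 4.85 with 1, and 3.67 and 4.23 with 2. In regions called in all 6 lists it was 3.76 and 4.25.

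**Figure D4:**
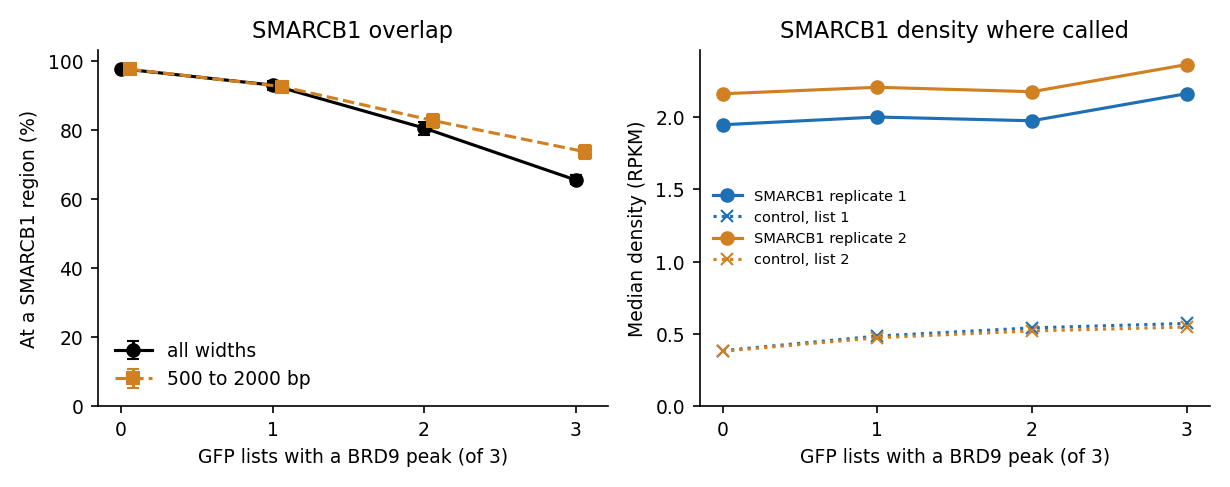
Left, percentage of regions with a peak in 3 of 3 SB1 lists that lie at a SMARCB1 region, by the number of GFP lists with a peak, for all widths and for 500 to 2000 bp, with 95% Wilson intervals. Right, median SMARCB1 density and its control where called; members are the points at 1 and 2, the overlap falls from 97.7% to 65.4%, and density stays near 2 RPKM in both replicates.

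SMARCB1 peaks at members were wider and ranked higher than those at merged BRD9 regions as a whole, and ranked slightly lower than those at the neighbouring classes. Summed over the peaks at a member, they had a median width of 2825 and 3750 bp and 354 and 484 reads in replicates 1 and 2, and stood at the top 7.04% and 4.69% of their lists by score. Over all merged regions that SMARCB1 peaks met, the median width was 1800 and 2275 bp and the rank the top 13.6% and 10.6%. Regions with no GFP call had 2550 and 3200 bp and the top 5.34% and 4.14%, and regions called in all 6 lists 3917 and 4975 bp and the top 5.52% and 3.82%. The SMARCB1 apex lay a median of 240 and 256 bp from the BRD9 apexes of the SB1 lists. The 2702 members fell in 2521 SMARCB1 regions with a median width of 3625 bp. Of these, 1867 (74.1%) held 1 member and no other region called in 3 of 3 SB1 lists with 0 or 3 GFP calls, 187 held 2 or more members, with at most 8, and 325 (12.9%) also held a region with no GFP call.

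The overlap with SMARCB1 depended on which GFP list held the member. It was 96.1% for replicate 2 alone (94.7% to 97.2%), 94.9% for replicates 2 and 3, 91.2% for replicate 3 alone, 83.9% for replicates 1 and 2, 81.8% for replicate 1 alone (75.9% to 86.5%) and 49.9% for replicates 1 and 3 (45.2% to 54.6%). The 1181 members with 2 GFP calls that include replicate 2 had 91.8% (90.1% to 93.2%), against 96.1% for replicate 2 alone and 92.9% for all members with 1 call. Among members with 2 calls the share was lowest in the set of replicates 1 and 3. Replicates 1 and 2 together, at 83.9%, lay below replicate 2 alone (96.1%) but not below replicate 1 alone (81.8%). Replicates 2 and 3 together, at 94.9%, lay below replicate 2 alone but not below replicate 3 alone (91.2%). Members with a call in replicate 2 were at a SMARCB1 region in 93.7% of cases and the 1036 without one in 71.9%. Control density moved with the sets, from 0.468 RPKM under the GFP peaks of replicates 1 and 3 to 1.31 RPKM under those of replicate 2 alone, and its part in the overlap was not tested.

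Members with and without SMARCB1 differed in BRD9. At the 2702 members in SMARCB1 regions, BRD9 peaks had a median of 525, 494 and 629 bp in the GFP lists and 873, 841 and 911 bp in the SB1 lists, a log2 ratio of 0.63 ± 0.11 (SD, n = 3 GFP lists). All 3 SB1 medians were above all 3 GFP medians. Density there was 3.37, 4.09 and 3.54 RPKM in GFP and 3.73, 3.83 and 3.42 RPKM in SB1, which overlap.

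At the 355 members with no SMARCB1 peak the length ran the other way in the median, with 1136, 600 and 883 bp in the GFP lists and 803, 553 and 593 bp in the SB1 lists, a log2 ratio of -0.31 ± 0.30. These groups overlap, since GFP replicate 2 lay below SB1 replicate 1. Density was 3.36, 3.43 and 3.49 RPKM in GFP and lower in each SB1 list, at 3.03, 3.24 and 2.87 RPKM. In SB1 cells such members were thus shorter and less dense than members at SMARCB1 regions in each of the 3 lists. By GFP list, the log2 length ratio was -0.62, -0.0096 and -0.30 at members without SMARCB1 and 0.67, 0.71 and 0.51 at members with it, so the subsets differed in the same direction against each of the 3 GFP lists.

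The GFP lists that held these 355 members also differed: replicate 1 held 77.2% of them, replicate 3 72.4% and replicate 2 29.0%, against 24.6%, 51.1% and 72.4% of the members at SMARCB1 regions. Among the 355, 78.6% had 2 GFP calls, against 48.2% at SMARCB1 regions. Control density moved with this split as well, at 0.309 to 0.388 RPKM under their SB1 peaks and 1.06 to 1.07 RPKM under those at SMARCB1 regions, and its part in the length or density difference was not tested.

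**Figure D5:**
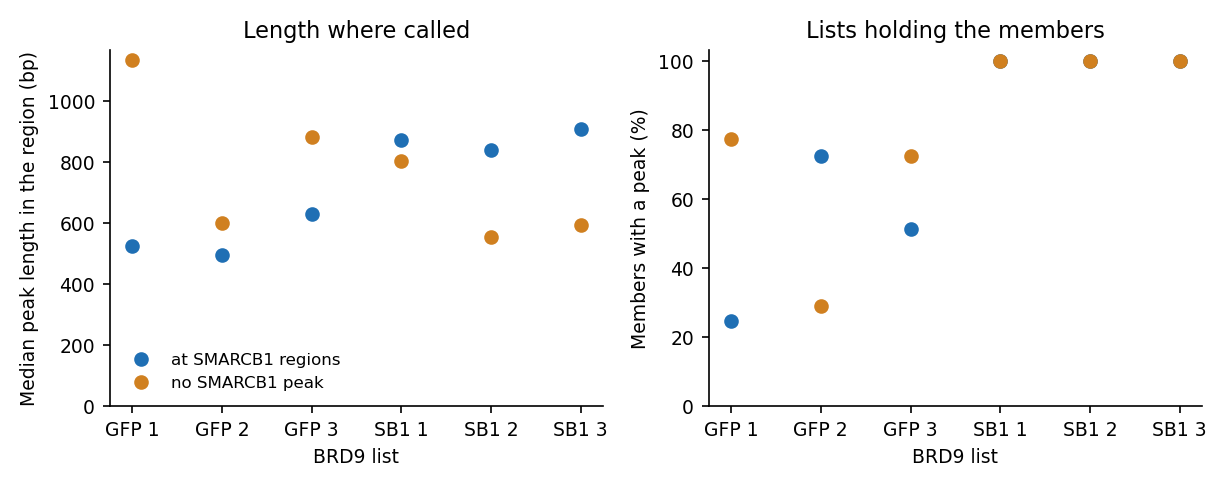
Median BRD9 peak length where called (left, base pairs) and percentage of members with a peak (right) in each BRD9 list, for the 2702 members at SMARCB1 regions and the 355 with no peak in either SMARCB1 list. The SB1 lists stand at 100% by the rule; GFP replicate 2 holds 72.4% of the first set and 29.0% of the second.

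Members did not lie mainly beside other BRD9 sites of the same kind. The nearest other member was a median of 50.3 kb away, the nearest region with no GFP call 50.0 kb, and the nearest region called in all 6 lists 39.1 kb. Within 10 kb, 24.6% of members had another member and 32.1% a region called in all 6 lists. Regions called in all 6 lists had another of their kind within 10 kb in 56.4% of cases and regions with no GFP call in 40.4%. Both classes are larger than the members, at 5086 and 8049 regions, and the part of class size in these shares was not tested.

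By chromosome, members made up 14.1 of 100 regions with 3 of 3 SB1 calls on chromosome 21 and 28.4 on chromosome 17. Chromosome 19 held 4.83% of members and 5.54% of all merged regions, with 1.27% of regions with no GFP call and 11.5% of regions called in all 6 lists. It had 18.0 members per 100 regions with 3 of 3 SB1 calls, near the 19.2 over all chromosomes. Its members were at SMARCB1 regions in 70.2% of cases, with the lowest share, 59.5%, on chromosome 21. Median SMARCB1 density at members was highest on chromosome 8, at 2.42 and 2.58 RPKM, where its control density was 0.663 and 0.639 RPKM. Of the 40 members of highest SMARCB1 density, 14 were on chromosome 8 and 9 on chromosome 2, the next most frequent. These chromosomes held 6.66% and 7.94% of all members.

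Regions were named by a set rule, the 5 best by mean rank of the authors' score in the SB1 lists for 1 and for 2 GFP calls, the 5 best without SMARCB1, and the 5 of highest SMARCB1 density. Genes and sequences at them were not used here, as no genome of the files' build was at hand. Positions are in hg19 for the SMARCB1 files; the BRD9 files name no build and share the notes that list hg19. The best-ranked members by this rule were regions with a high control. The top member with 1 GFP call, chr8:46847664-46856480, had 56.9 RPKM in GFP replicate 2 and 56.0, 58.4 and 47.3 RPKM in the SB1 lists, with a control density of 11.9 RPKM. The top member with 2, chr20:29827951-29830039, had 25.2 and 27.9 RPKM in GFP replicates 1 and 3 and 20.3, 20.5 and 26.6 RPKM in the SB1 lists, with a control of 7.38 RPKM. In both, GFP and SB1 densities overlapped. Both had a peak in 3 GFP lists, and so were no longer members, when peaks within 500 bp of each other were merged. The 10 named members with the best ranks for 1 and 2 GFP calls had controls of 4.62 to 24.6 RPKM, and none lay at a SMARCB1 region. Members with a mean control above 2 RPKM numbered 245 (7.84%). Of these, 213 (86.9%) lay at a SMARCB1 region, close to the share over the members as a whole, and GFP replicate 2 held 89.0%.

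The 5 members of highest SMARCB1 density were all on chromosome 8, with mean BRD9 controls of 1.26 to 3.79 RPKM. At chr8:129880776-129882827 and chr8:129888679-129889739, which lie under the same SMARCB1 peaks, SMARCB1 density was 5.26 and 6.38 RPKM in replicates 1 and 2. The first had BRD9 densities of 5.50 and 3.85 RPKM in GFP replicates 2 and 3 and 3.87, 4.18 and 4.54 RPKM in the SB1 lists, which overlap. The second had 7.66 RPKM in GFP replicate 2 and 7.30, 6.18 and 5.22 RPKM in the SB1 lists, all below the GFP value. At chr8:127515083-127517501, SMARCB1 density was 4.64 and 6.33 RPKM, and BRD9 had 6.27 and 4.86 RPKM in GFP replicates 2 and 3 against 5.74, 4.24 and 4.96 RPKM in the SB1 lists, which overlap too.

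Because high controls led the ranks, the same ranking was repeated for members with a mean control of at most 2 RPKM, a set chosen after the values were seen. The top member with 1 GFP call, chr6:140663801-140668955, had 2.66 RPKM over 318 bp in GFP replicate 1 and 9.39, 9.30 and 8.14 RPKM over 4728, 4263 and 4535 bp in the SB1 lists. Its mean control was 0.793 RPKM, and SMARCB1 density was 2.78 and 3.03 RPKM. All 3 SB1 values stood above the GFP value in length and density. The next, chr6:140368776-140375507, had 3.40 RPKM over 692 bp in GFP replicate 1 against 7.16, 7.68 and 6.53 RPKM over 5901, 5405 and 6366 bp.

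Of these members with 2 GFP calls, the top one was chr6:140755051-140758361, with 3.33 and 2.74 RPKM over 1075 and 1250 bp in GFP replicates 1 and 3 and 7.16, 10.1 and 6.04 RPKM over 2312, 1351 and 2085 bp in SB1. The second, chr17:46316401-46320340, had 4.77 and 3.27 RPKM over 934 and 329 bp in GFP replicates 2 and 3 and 7.21, 8.74 and 7.13 RPKM over 3300, 3350 and 3914 bp in SB1. The SMARCB1 peaks over it summed to 32875 bp in replicate 1 and 33075 bp in replicate 2. At both members every SB1 value was above every GFP value. The members of this ranking, those with 1 GFP call included, were picked for their high score in the SB1 lists, so high SB1 values there are part of the choice and no result.

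Together, 4 of these 10 members lay on chromosome 6 between 140368776 and 140898651, a stretch of 530 kb. It held 30 regions with a peak in 3 of 3 SB1 lists: 11 members, 13 regions with no GFP call and 6 called in all 6 lists. SMARCB1 regions covered 25 of the 30 and 10 of the 11 members. Here GFP replicate 1 held 9 of the 11 members, replicate 3 held 5 and replicate 2 held 1, the reverse of the order over the members as a whole.

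Among members with no SMARCB1 peak and a control of at most 2 RPKM, the best rank was at chr10:38240876-38242376, with 2.72 and 3.32 RPKM over 425 and 472 bp in GFP replicates 2 and 3 and 4.08, 4.45 and 4.30 RPKM over 1233, 1440 and 1188 bp in SB1. All SB1 values there exceeded the GFP values, again in a member picked for its SB1 score. At chr7:61606910-61608453 density was 5.14 and 4.21 RPKM in GFP replicates 1 and 3 and 3.39, 3.30 and 3.73 RPKM in SB1, all below GFP. The mean SB1 rank of these 5 members was the top 9.20% to 18.8% of the lists, against 0.365% to 1.29% for the 5 with 1 GFP call, which lay at SMARCB1 regions.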

How the data were processed

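The deposited peak lists give counts of reads in each peak for sample and control, densities in RPKM and −log10 of the false discovery rate, 1 list per sample, per the file headers. Densities used the deposited RPKM with length taken as end minus start. Per the submitters' processing notes the tools included BWA 0.7.12-r1039, SAMtools, bedtools, DiffBind and edgeR; the peak caller is not given in the sources used here. Peaks were merged at an overlap of at least 1 bp; reads and lengths of a list's peaks in a region were summed before density was taken. Shares carry 95% Wilson intervals. Group values are means and SDs over lists of medians over regions, and no test was run because the choice used the BRD9 contrast and regions are not replicates. The members and lists were chosen with earlier results of these data known. On simulated lists, 390 of 390 planted members were recovered. Python 3.11.15, numpy 2.4.6, pandas 2.3.3 and matplotlib 3.10.9 were used. The 20 named regions follow the rule given with them, which yields 15 distinct regions; alternatives were other score cuts, merging distances, overlaps and left-out lists.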

Additional observations from a re-analysis of the deposited data

How the results depend on the processing

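Of 84 alternative values of the principal results, 57 were classed as the same, 25 as moved and 2 as reversed. The first class was wide. It took in 2120 to 4390 members against 3125, and log2 length ratios of 0.27 to 0.55 against 0.44. Where a value moved, the cause was not tested. The number of members (3125) was 1720 with the better-scoring peaks of each list, from its median up, and ran from 1783 to 4390 with 1 list left out, the lowest without GFP replicate 2 and the highest without SB1 replicate 2, as leaving out a GFP list narrows the rule and leaving out an SB1 list widens it. The share at SMARCB1 regions (86.5%) was 89.5% with equal numbers of top peaks, 88.3% with peaks within 500 bp merged, 83.9% with all sequences, 88.2% with SMARCB1 replicate 2 alone, 88.6% with either replicate, and 77.4% to 90.6% with 1 list left out. Chosen after seeing the data, members of 500 to 2000 bp gave 87.6%, and members without and with a call in GFP replicate 2 gave 71.9% and 93.7%. SMARCB1 density was 2.28 RPKM with the better-scoring peaks. The density ratio (log2 -0.042) reversed to 0.038 without GFP replicate 2, ran from -0.11 to 0.038 with 1 list left out, and reversed to 0.41 when reads were not divided by peak length, which adds the length difference. Replicate 2's share of GFP calls (44.0%) was 48.8% with equal numbers of top peaks, 41.8% at 25% cover, 41.4% without peaks of control density above 2 RPKM, and 40.1% to 72.1% with 1 list left out, where fewer lists share the calls. Lists of the same replicate number had correlations of 0.0095, 0.0077 and 0.0013, which do not settle whether the numbers pair the samples. With the replicate block, the log2 ratios were -0.059 for density and 0.45 for length. Touching peaks merged as well gave 3121 members. Of the 15 distinct named regions, 7 stayed members with peaks within 500 bp merged. GFP calls at members rested on a median of 24 to 26 reads, and the part of depth in the calls was not tested.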
